A study of Mus musculus with 9 samples.

Results

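The T cell receptor alpha and delta locus, Tra and Trd, was taken as positions 52400000 to 54250000 of mouse chromosome 14 in GRCm38, a window of 1850 kb. Its members were the listed contacts, called interactions here, with the midpoint of either anchor inside that window, both anchors on the chromosome, at any span. Of 4560397 interactions in all 10 tables, 371 met this rule. The gene table placed 202 receptor gene segments in the window. These were 130 Trav, 6 Trdv, 2 Trdd, 2 Trdj, 1 Trdc, 60 Traj and 1 Trac.

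Contacts were measured by HiChIP, in which chromatin is ligated in place, precipitated with an antibody and sequenced as read pairs that join distant fragments. All libraries came from sorted CD4+ CD8+ (double-positive) thymocytes, the stage at which T cells join their alpha chain genes. An antibody to H3K27ac, the acetylated histone H3 found at active regulatory DNA, was used for 2 libraries of NOD/ShiLtJ (NOD) mice, which are prone to autoimmune diabetes, and for 2 of C57BL/6J (BL6) mice, each numbered as biological replicates. An antibody to Smc1, a subunit of cohesin, was used for 2 libraries of each strain, numbered as technical runs of 1 biological replicate, so p-values for Smc1 measure technical spread. It was also used for 1 library of (NOD/ShiLtJ X C57BL/6) F1 mice, which has a table for each parental genome. The labels give no modified allele, agent or age for any group. For the H3K27ac samples the title and the antibody field disagree, since the title carries Smc1, and the antibody field was followed. By their file names, the NOD tables carry positions moved from the NOD genome to the BL6 reference, so strain and mapping genome cannot be told apart.

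The locus runs from V segments at its distal end, through delta segments nested inside it, to alpha J segments and the constant gene Trac. Recombination joins 1 V to 1 J segment and removes the DNA between them, the nested delta segments included, and thymocytes can replace a first alpha join with later ones. An enhancer just 3′ of Trac, on the side of the neighbouring gene Dad1, drives transcription and recombination of the alpha segments. Cohesin, with the boundary factor CTCF, holds together loops that bring distant segments near this end.

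Read pairs linked the borders of the locus to RefSeq promoters, and 4 of these are printed (GRCm38.p6, 5′ to 3′ on the strand of the gene). They were chosen among those whose genes are named in the results. Others, such as those of Abhd4, Ajuba and Sall2 and a second one of Slc7a7, are not printed. Olfr1510 is an olfactory receptor gene at the distal edge, inside the window. Slc7a7, a cationic amino acid transporter subunit gene, Lrp10, a gene of the lipoprotein receptor family, and Psmb11, which encodes the thymus-specific proteasome subunit of cortical epithelium, lie beyond the 3′ end. Capitals mark AGGNGGC, letters found in the core of the CTCF motif, on either strand. The RUNX core TGTGGT was searched on both strands as well and matched none of the 4. Among those not printed, the promoters of Abhd4 and the second of Slc7a7 held AGGNGGC, and those of Ajuba and Sall2 did not. Of 32851 promoters of this length in the table, 29.4% held AGGNGGC and 16.8% held TGTGGT, and a match describes letters only.
Olfr1510 promoter, chr14:52410878-52411177, minus strand: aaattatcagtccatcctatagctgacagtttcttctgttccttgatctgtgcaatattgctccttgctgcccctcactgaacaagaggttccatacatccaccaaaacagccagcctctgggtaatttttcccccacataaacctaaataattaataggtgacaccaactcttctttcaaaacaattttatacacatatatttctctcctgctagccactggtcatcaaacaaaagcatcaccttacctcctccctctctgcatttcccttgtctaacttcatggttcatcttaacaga
Slc7a7 promoter, chr14:54410154-54410453, minus strand: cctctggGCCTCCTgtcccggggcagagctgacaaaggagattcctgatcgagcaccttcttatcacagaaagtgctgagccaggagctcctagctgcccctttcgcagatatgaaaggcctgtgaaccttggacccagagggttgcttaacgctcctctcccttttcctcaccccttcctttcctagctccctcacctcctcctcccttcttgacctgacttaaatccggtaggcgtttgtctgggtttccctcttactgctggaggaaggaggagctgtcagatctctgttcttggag
Lrp10 promoter, chr14:54463897-54464196, plus strand: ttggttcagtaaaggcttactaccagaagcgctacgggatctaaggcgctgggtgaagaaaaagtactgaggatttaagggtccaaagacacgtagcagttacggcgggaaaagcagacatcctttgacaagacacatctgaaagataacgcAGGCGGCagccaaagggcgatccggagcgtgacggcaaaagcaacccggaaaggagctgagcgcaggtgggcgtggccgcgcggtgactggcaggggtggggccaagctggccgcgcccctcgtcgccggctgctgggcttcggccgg
Psmb11 promoter, chr14:54625060-54625359, plus strand: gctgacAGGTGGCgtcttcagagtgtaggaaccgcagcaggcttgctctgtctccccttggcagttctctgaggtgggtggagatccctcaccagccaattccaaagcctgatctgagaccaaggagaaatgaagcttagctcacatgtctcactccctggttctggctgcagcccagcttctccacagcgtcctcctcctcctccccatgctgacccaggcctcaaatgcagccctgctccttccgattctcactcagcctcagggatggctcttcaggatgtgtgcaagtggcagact

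The locus was thinly listed in every table. It held 16 and 57 read pairs in the H3K27ac NOD libraries 1 and 2, in 5 and 21 interactions, against 30 and 181 in the H3K27ac BL6 libraries, in 5 and 47 interactions. In Smc1 it held 211 and 65 read pairs in NOD, in 77 and 27 interactions, against 173 and 200 in BL6, in 63 and 72. The F1 library held 74 with the NOD mapping, in 25 interactions, and 71 with the BL6 mapping, in 29. The first H3K27ac library of each strain was the sparser of its pair, and in Smc1 the sparser one was NOD 2. Of the interactions, 0% to 76.0% per table rested on 2 read pairs, the smallest number a table lists.

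Library totals ranged from 404343 read pairs in H3K27ac NOD 1 to 2971366 in Smc1 BL6 2, so levels are given in CPM, the read pairs of a feature scaled to the library total. The locus stood at 39.6 and 106 CPM in H3K27ac NOD and at 62.2 and 141 CPM in H3K27ac BL6. For Smc1 the levels were 117 and 39.4 CPM in NOD against 82.8 and 67.3 CPM in BL6. Strains overlapped in both antibodies. The genome cut into windows of the same length gave a scale for these levels, with medians of 406 to 947 CPM per table. The locus reached 0.0422 to 0.193 of that median. In the 6 Smc1 tables, 3.97% of windows (NOD 2) to 8.01% (NOD 1) were lower. In H3K27ac 17.9% to 28.2% were lower. The windows on either side of the locus held more in every table, by 1.94 to 8.95 times on the upstream side and by 9.06 to 26.4 times on the downstream side.

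**Figure D1:**
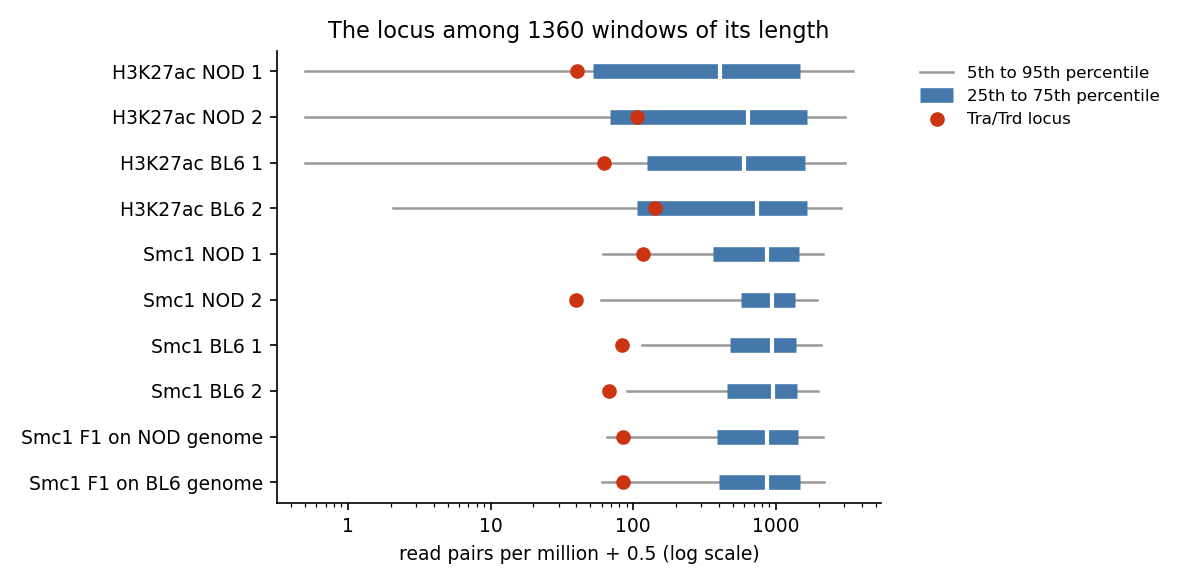
CPM (x axis, log scale, 0.5 added) in windows of 1850 kb for each table (rows), with grey lines from the 5th to the 95th percentile, blue bars from the 25th to the 75th, white ticks at the median and red points for the Tra/Trd locus. Every red point lies left of its median, and in the Smc1 rows all lie below the 25th percentile.

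Read pairs were concentrated at the ends of the locus. The 29.5 kb from Trac to the end of the window (54220521 to 54250000) had an anchor in 137 interactions with 472 read pairs over the 10 tables, which is 16.0 read pairs per kb. The distal V part (52400000 to 52683963, 8 V segments from Trav1 to Trav6-2 in 284 kb) had 221 interactions and 571 read pairs, or 2.01 per kb. Trdv5 with the alpha J segments (71.9 kb) had 20 interactions and 52 read pairs, 0.724 per kb, in 5 tables. The rest of the locus was almost bare. The 407 kb of V segments whose names carry a d had 5 interactions with 11 read pairs, and the 299 kb of V segments named with an n had none. The proximal V part, 723 kb with 53 V segments from Trav7-2 to Trdv4, had 1 interaction with 2 read pairs, in F1 on the BL6 genome. The delta part from Trdd1 to Trdc, 35.2 kb, had none. The d and n segments are near-identical copies of one another, and how far their reads could be placed was not tested.

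**Figure D2:**
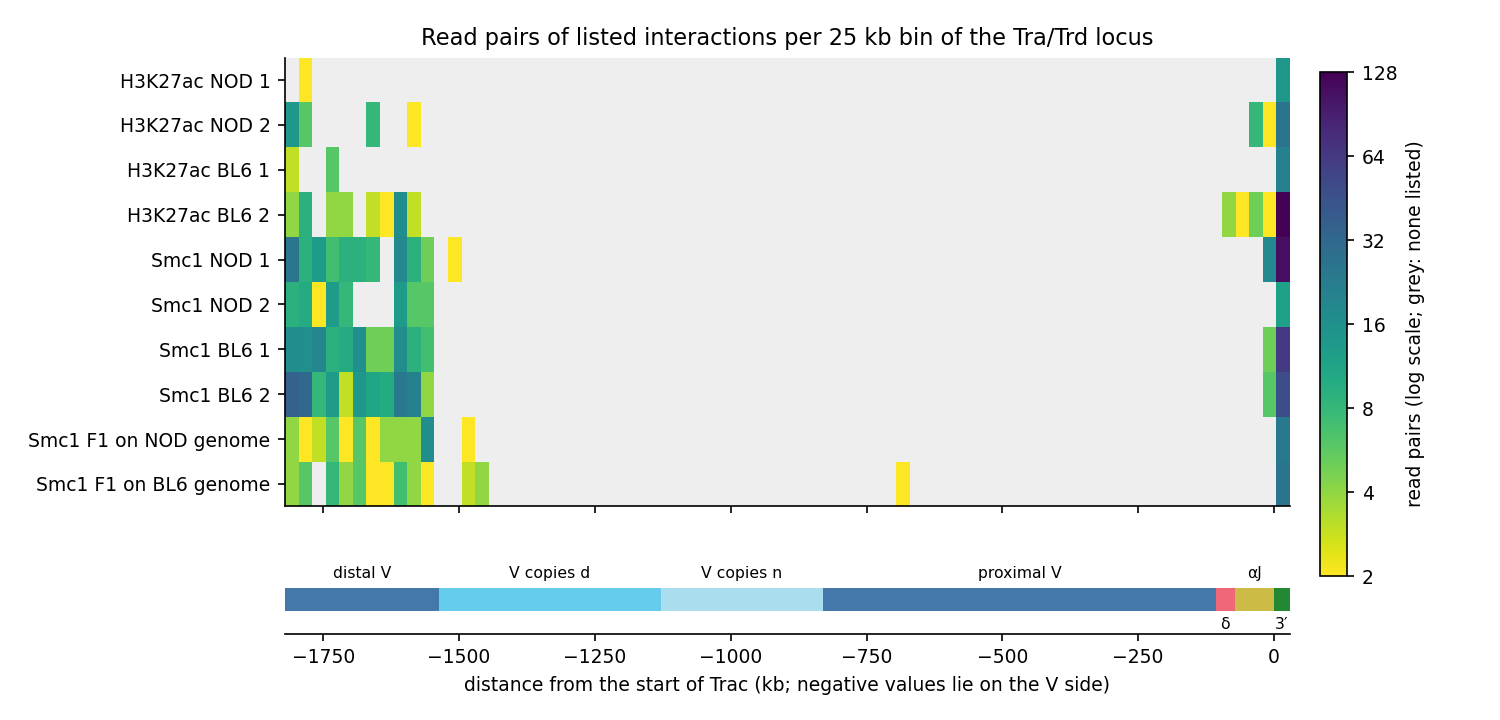
Read pairs per 25 kb bin (colour, log scale, grey where no interaction is listed) along the locus for each table (rows), by distance from the start of Trac in kb, with the parts of the locus drawn below. Colour fills the distal V end on the left and the last bin on the right, and the stretch between them is mostly grey, apart from a few bins at the d-named copies, at Trav13-1 and among the alpha J segments, where H3K27ac BL6 2 fills 4 bins in a row up to the last one.

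The bare stretch was measured between anchors. In the 8 tables of the parental strains no anchor midpoint fell between 52723534 and 54148920, 1425 kb that hold 125 of 136 V segments and all delta D, J and C segments. Each of these tables alone had a bare stretch of 1479 to 1797 kb there. In these tables together 7 stretches on autosomes were longer, and 27 with chromosome X included. Within single tables, 5 to 10 autosomal stretches were longer in parental Smc1 and 42 to 138 in H3K27ac. With the F1 tables added, the anchor at Trav13-1 cut the bare stretch to 793 kb (52752787 to 53545698). Then 9 stretches on autosomes were longer, and 43 with chromosome X included. On bins of 25 kb, 54 of the 74 bins of the locus (73.0%) had no anchor in any table, against 8.39% of 102508 bins over chromosomes 1 to 19 and X.

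Other antigen receptor loci gave a comparison of the same kind. Trb, the beta chain locus on chromosome 6, had no anchor in 50% of its bins, and Igk, an immunoglobulin light chain locus, in 14.8%. Igh had none in 3.60%, and in Trg and Igl every bin held an anchor. Per length, the Tra/Trd locus had 21.3 to 76.2 CPM per Mb over the 10 tables and Trb 273 to 531. In each table the value was lower for Tra/Trd than for Trb. Igh had 111 to 508. Igk, which is not joined at this stage, had 14.1 to 96.1 CPM per Mb and overlapped the Tra/Trd range. Trg, at 0 to 181, and Igl, at 0 to 223, overlapped it too. Igl was lower than Tra/Trd in every H3K27ac table and higher in every Smc1 table. Trg was lower in H3K27ac NOD 1, H3K27ac BL6 1 and F1 on the BL6 genome. Gene density and the share of reads that can be placed differ between these loci and were not tested.

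**Figure D3:**
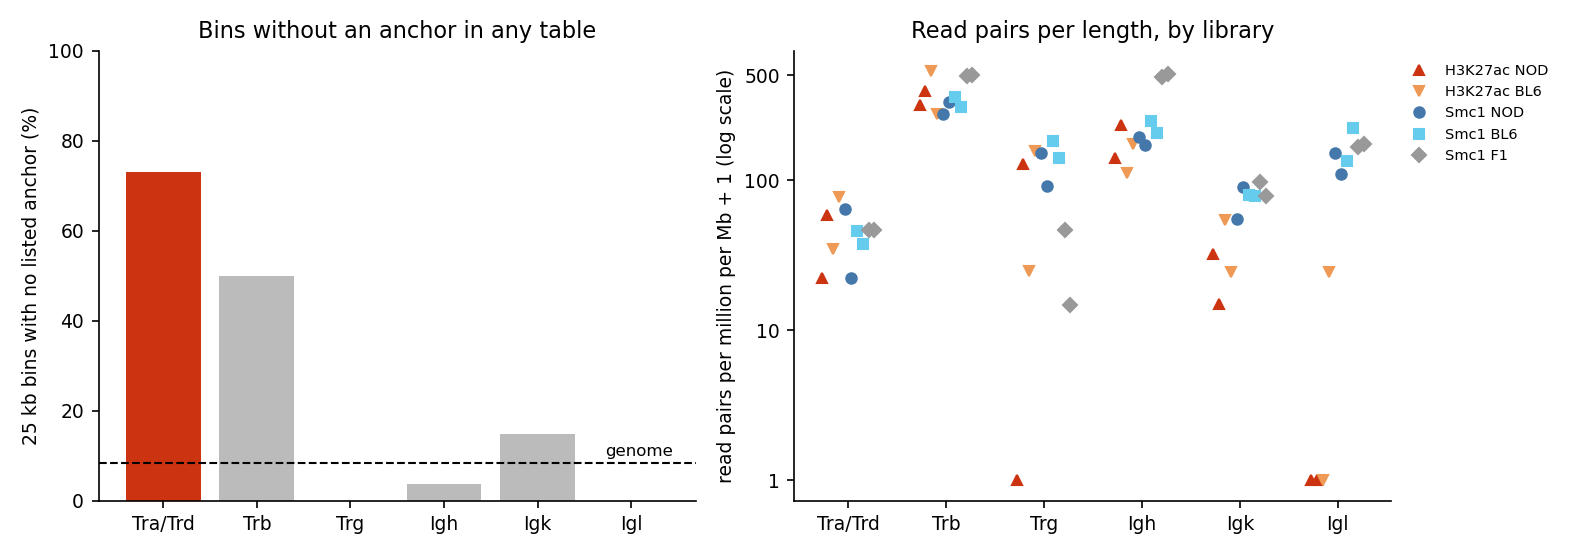
Left, percent of 25 kb bins with no anchor in any of the 10 tables for 6 antigen receptor loci, with the genome's value as a dashed line. Right, CPM per Mb of locus (log scale, 1 added) with 1 point per table. Tra/Trd has the highest bar, at 73.0%, and its points lie below those of Trb.

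Few V segments carried an anchor. Within 1 kb of an anchor lay 9 of 136 V segments, of which 6 were among the 8 distal ones. Trav2 stood out by read pairs: it had 0 and 8 in the H3K27ac NOD libraries against 0 and 3 in H3K27ac BL6, and 8 and 0 in Smc1 NOD against 0 and 7 in Smc1 BL6, with 2 in F1 on each genome. Trav3-1 had 23 read pairs in 5 tables, with 5 and 10 in the Smc1 BL6 libraries. Trav5-1 had 11 in 3 Smc1 tables, and Trav1, Trav6-1 and Trav6-2 had 5, 4 and 2. The other 3 were Trav6d-4 and Trav13-1, each in F1 on the BL6 genome with 4 and 2 read pairs, and Trdv5, with 4 in H3K27ac BL6 2. In the parental libraries, Trav3-1 in Smc1 BL6 and Trav5-1 in Smc1 NOD were the only cases reached in both libraries of a group.

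Most distal anchors lay between V segments, as does most of the distal part, with its 8 short V segments in 284 kb. No expected share was computed. Overlapping anchors of all tables merged into 76 groups, 52 of them in the distal V part, and 18 of the 76 overlapped a receptor gene segment. An anchor group at 52401264 to 52403002, its middle 7.76 kb from Olfr1510, was shared by 7 tables with 47 read pairs. Another at 52599895 to 52601802, its middle 6.46 kb from Trav4-1, had 48 read pairs in 6 tables. Groups at 52436259 to 52438481, near Trav1, and 52634289 to 52636597, near Trav6-1, were each in 7 tables with 33 and 32 read pairs. Of all 76, 33 were in 1 table, 16 in 5 or more and none in all 10.

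Anchors among the alpha J segments were scattered, each in 1 or 2 tables. H3K27ac NOD 2 had 10 read pairs there, at Traj24, Traj23 and Traj4, and H3K27ac BL6 2 had 13, at Trdv5, Traj49, Traj34 with Traj33, Traj29 with Traj28, and Traj7. The first H3K27ac library of each strain had none. In Smc1 the anchors were at Traj16 and at Traj2 with Traj1 in NOD 1 (18 read pairs), at Traj6 with Traj5 and at Traj2 with Traj1 in BL6 1 (5) and at Traj7 in BL6 2 (6), with none in NOD 2. At Traj16, 16 read pairs of Smc1 NOD 1 came from a single anchor. No J anchor farther from Trac than Traj16 was listed in Smc1, while H3K27ac had them as far as Traj49. The H3K27ac anchors of that kind rest on the second library of each strain, and the difference between antibodies at single J segments was not tested.

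In the H3K27ac tables, Smc1 NOD 1 and Smc1 BL6 1, the anchor with the most reads at the locus lay at the 3′ end. In the other Smc1 tables it lay in the distal V part. It held 553 reads in NOD 2, 864 in BL6 2, and 648 and 643 in F1 on the NOD and BL6 genomes. A group of anchors at 54225209 to 54229170 lay just beyond Trac, on the side where the alpha enhancer is known to be, and was listed in 9 of the 10 tables with 129 read pairs. Its longest anchor held 1734 and 3124 reads in H3K27ac NOD and 2171 and 2239 in H3K27ac BL6. In Smc1 it held 700 in NOD 1 and no listed anchor in NOD 2, against 622 and 794 in BL6, and 367 and 358 in F1 on the NOD and BL6 genomes. The H3K27ac libraries were all higher than the Smc1 ones. Because the H3K27ac anchors were also longer, at 3.29 to 3.81 kb against 1.10 to 2.18 kb, reads per kb were compared with the median anchor of the same table. They were 1.96 and 3.27 times that median in H3K27ac NOD and 1.61 and 1.96 times in H3K27ac BL6. For Smc1 they were 1.5 times in NOD 1, which also listed a shorter anchor of 138 reads beside it at 0.586 times, 1.24 and 1.02 times in BL6, and 1.22 and 1.21 times in F1. By reads per kb, between 0.0817% and 0.812% of the anchors of each H3K27ac table were higher, against 3.18% to 46.8% in the Smc1 tables, and 96.9% for that shorter anchor. Read counts of anchors were not tested.

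Further anchors of the 3′ end lay beside and inside Dad1, which encodes a subunit of the oligosaccharyltransferase. A pair of adjacent anchors at 54232700 to 54234068 and 54234130 to 54235535, at the end of Dad1 nearest Trac, was joined by 17 and 47 read pairs in the H3K27ac BL6 libraries 1 and 2, with spans under 10 kb. No H3K27ac NOD, Smc1 or F1 table listed that join. Anchors inside Dad1 at 54237734 to 54239821 were in 8 tables with 93 read pairs, and those at 54242185 to 54245825 in 7 tables with 110. Smc1 NOD 1 gave 30 and 36 of these, and Smc1 NOD 2 gave 4 and 8.

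**Figure D4:**
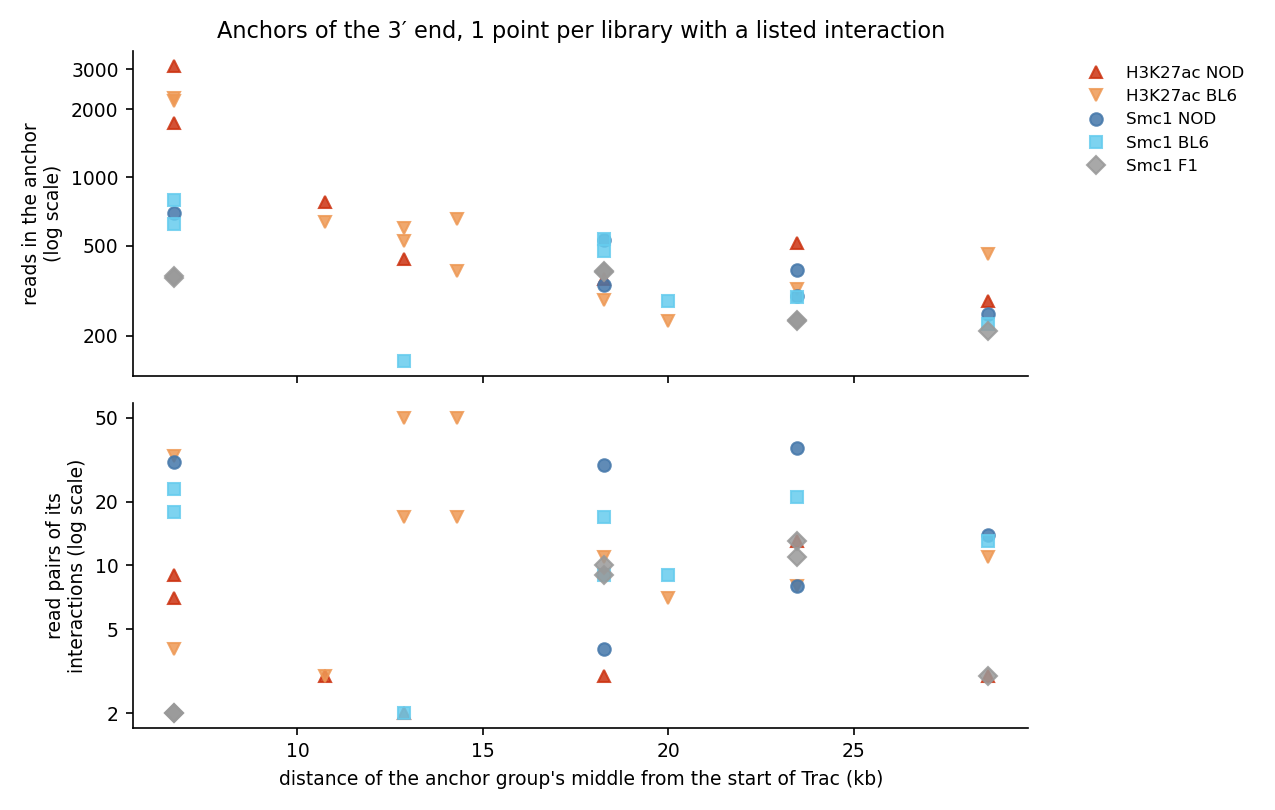
Reads in the anchor (top) and read pairs of its interactions (bottom), both on log scales, for the 8 anchor groups of the 3′ end by distance of the group's middle from the start of Trac in kb. The leftmost group holds 1734 to 3124 reads in the H3K27ac tables, above its Smc1 values of 358 to 794.

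At both ends most read pairs had their partner outside the window, each on its own side. Interactions of a V anchor with the upstream side numbered 159 with 382 read pairs, and those of the 3′ end with the downstream side 125 with 385, each in all 10 tables. Joins within the V part numbered 29 with 118 read pairs, in 7 tables. The V part reached across the locus to the downstream side in 27 interactions with 59 read pairs, and the alpha J segments reached downstream in 15 with 36. A single interaction joined the 3′ end to the upstream side, with 2 read pairs in H3K27ac NOD 2. Upstream partners of V anchors lay 6.21 to 1662 kb from the edge, with a median of 372 kb, and 107 of the 159 within 500 kb. Downstream partners of the 3′ end lay up to 1694 kb away, with a median of 321 kb, and 94 of the 125 within 500 kb. The median span was 476 kb for V with upstream DNA and 334 kb for the 3′ end with downstream DNA. As the 3′ part is 29.5 kb long, the share outside depends on where the window was cut. A preference for either side was not tested.

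The share of locus read pairs with an anchor in the 3′ end was higher in H3K27ac than in Smc1 in BL6, and overlapped in NOD. It was an anchor for 87.5% (exact 95% interval 61.7% to 98.4%) and 45.6% (32.4% to 59.3%) in H3K27ac NOD 1 and 2, and for 70% (50.6% to 85.3%) and 69.6% (62.4% to 76.2%) in H3K27ac BL6. In Smc1 the shares were 52.6% (45.6% to 59.5%) and 18.5% (9.92% to 30%) in NOD against 36.4% (29.2% to 44.1%) and 24.5% (18.7% to 31.1%) in BL6. They were 32.4% in F1 with the NOD mapping and 36.6% with the BL6 mapping. In BL6 both H3K27ac libraries exceeded both Smc1 libraries, while in NOD the antibodies overlapped, since Smc1 NOD 1 exceeded H3K27ac NOD 2. The intervals cover counting error only. With spans of at least 10 kb, which drop the short join beside Dad1, the H3K27ac BL6 shares averaged 44.9% ± 19.9 (SD, n = 2), against 69.8% ± 0.273 with all spans. H3K27ac BL6 1 then had 4 of 13 read pairs at the 3′ end, a share below that of Smc1 BL6 1, so the antibodies overlapped in BL6 too. An exact permutation test of 2 libraries against 2 cannot give a two-sided p below 0.333, and none was run.

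**Figure D5:**
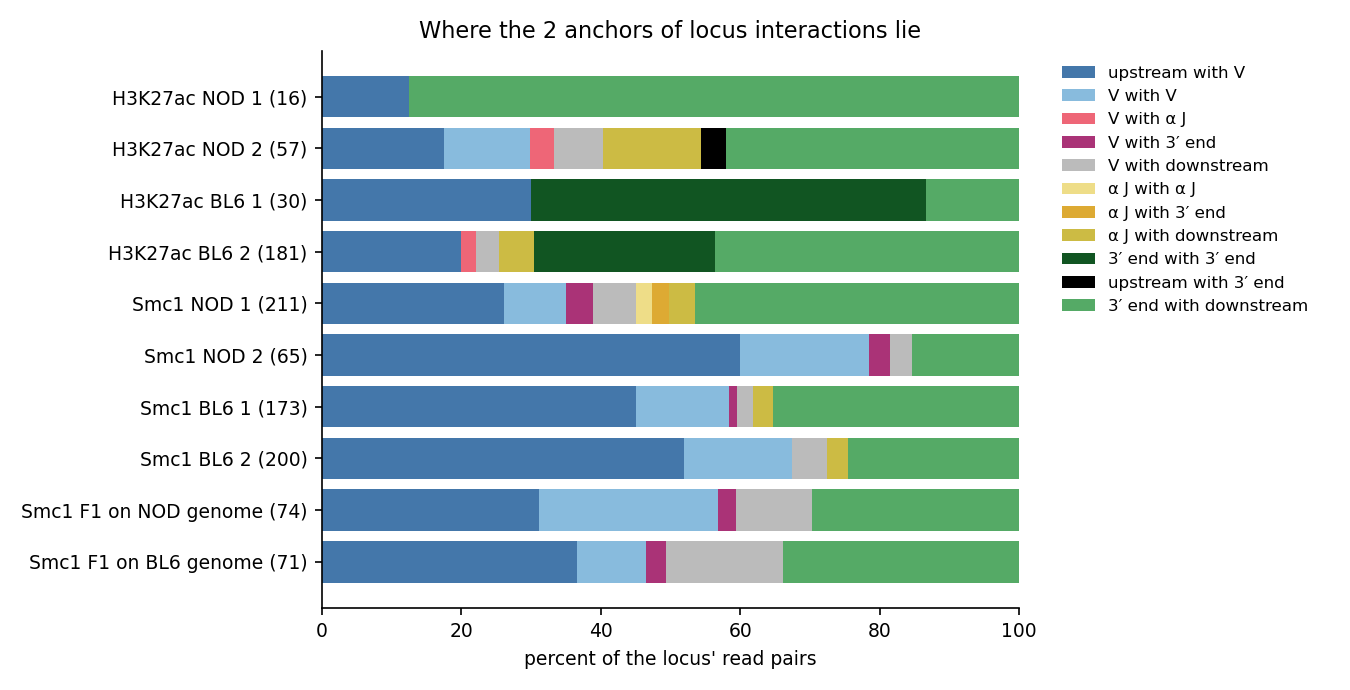
Percent of the locus' read pairs by the place of the 2 anchors, for each table (rows, with its read pairs in brackets). Blue on the left is V with upstream DNA, light green on the right is the 3′ end with downstream DNA, and the red and purple slivers are joins of V with alpha J or with the 3′ end. The dark green block, a join within the 3′ end, is in the H3K27ac BL6 rows.

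Joins from V to the J or constant end, the span that recombination crosses, were few, and no background at such spans was computed. There were 11, each with 2 read pairs, over spans of 1505 to 1807 kb in 7 tables, and 8 of them ended in the 3′ end. Smc1 NOD 1 had 4, from Trav2 to the enhancer anchor and to Dad1, from a site near Trav6d-3 to the enhancer anchor, and from a site 13.0 kb from Olfr1507 to Dad1. Smc1 NOD 2, Smc1 BL6 1 and F1 on each genome had 1 each. The F1 join, between 52525994 to 52527080 and 54227773 to 54228893 on the NOD genome, was listed at the same place on the BL6 genome. The H3K27ac libraries had 3, from near Olfr1510 to Traj4 in NOD 2 and from Trav3-1 to Traj7 and near Trav4-1 to Traj49 in BL6 2. No table lists spans of 2 Mb or more.

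Downstream partners of the locus included several neighbours by name. Anchors within 5 kb of Slc7a7 took 72 read pairs in 8 tables: 0 and 3 in H3K27ac NOD against 0 and 8 in H3K27ac BL6, 17 and 2 in Smc1 NOD against 22 and 10 in Smc1 BL6, and 4 and 6 in F1 on the NOD and BL6 genomes. Slc7a7 was thus reached in every Smc1 table, though these are technical runs within each strain and 1 F1 library on both genomes. Counts were not scaled to gene length, and Slc7a7 is the longest of the 12 neighbours. Abhd4, a lipid hydrolase gene next to Dad1, took 40 read pairs in 6 tables, and Mmp14, a membrane matrix metalloproteinase gene, 26 in 5. Lrp10 took 23 in 4 tables: 10 and 5 in H3K27ac NOD 1 and 2, none in H3K27ac BL6, 5 in Smc1 NOD 1 and 3 in Smc1 BL6 1. With all its contacts counted, the bin of Lrp10 had 24.7 and 18.6 CPM in H3K27ac NOD against 0 and 49.9 in H3K27ac BL6. It was not called between strains. Mrpl52, Oxa1l and Rem2 took 14, 16 and 15. On the upstream side, Sall2, Mettl3, Tox4 and Rab2b took 11, 10, 12 and 4 read pairs, all in Smc1 tables. A read pair counts for every gene within 5 kb of its anchor, so close neighbours such as Mettl3 and Tox4 can share read pairs.

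The printed promoters were met by locus anchors in few tables. The Psmb11 promoter lay in a partner anchor of the 3′ end with 4 read pairs in H3K27ac NOD 2, with 7 and 3 in 2 interactions of H3K27ac BL6 2, and with 2 in Smc1 BL6 2. The 4 and the 7 read pairs came from the enhancer anchor, 398 kb away, and the others from Dad1. The Lrp10 promoter was joined in H3K27ac NOD 1 by 7 read pairs to the enhancer anchor, 237 kb away, and by 3 to Dad1. The Slc7a7 promoter was joined in H3K27ac NOD 2 by 3 read pairs and in Smc1 BL6 1 by 4 and 3. The Olfr1510 promoter was joined to a site 33.6 kb inside the distal V part with 3 read pairs in H3K27ac NOD 2, and to upstream DNA with 2 and 3 in Smc1 BL6 1.

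Bins of 25 kb showed the same ends. The last bin, 54225001 to 54250000, held 14 and 26 read pairs in H3K27ac NOD against 21 and 126 in H3K27ac BL6, and 111 and 12 in Smc1 NOD against 63 and 49 in Smc1 BL6. It was the highest bin of the locus in both antibodies by mean CPM, at 56.2 in H3K27ac and 28.9 in Smc1. Its H3K27ac BL6 counts include the 17 and 47 read pairs of the short join beside Dad1. The next in both was 52400001 to 52425000 with Olfr1510, at 8.84 CPM in H3K27ac and 9.90 in Smc1. Its H3K27ac read pairs were 0 and 14 in NOD against 3 and 4 in BL6, so that its H3K27ac mean rests mostly on NOD 2. Of 235 pairs of bins with a listed locus contact, 173 were in 1 table. The H3K27ac libraries of a strain shared 1 of 23 pairs in NOD and 2 of 42 in BL6, and the Smc1 libraries 4 of 86 in NOD and 12 of 108 in BL6. The pair in the most tables, 6, joined the last bin with 54550001 to 54575000, which overlaps Haus4 and Ajuba.

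The F1 library showed which contacts were listed on both genomes. Of its bin pairs, 15 were listed on both, which is 62.5% of the 24 with the NOD mapping and 53.6% of the 28 with the BL6 mapping. Each genome listed 7 read pairs between the anchor at 54243746 to 54244935 and a site inside Abhd4. A join of 15 read pairs between 52649426 to 52651472 and 52651502 to 52652640, near Trav7-1, was listed on the NOD genome and in none of the other 9 tables. At the d-named copies and at Trav13-1, each F1 anchor was listed on 1 of the genomes. As both tables come from 1 library, no test was made between them.

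Whether NOD and BL6 differ at the locus was tested first on the whole window with edgeR's quasi-likelihood test across all windows. In H3K27ac the locus averaged 72.7 ± 46.9 CPM in NOD and 102 ± 55.7 CPM in BL6 (SD, n = 2 each), a log2 fold change of -0.31 ± 1.01 (SE, adjusted p = 1.00 by edgeR). None of 1188 windows was called, a background of 0%, with 12 windows below an unadjusted 0.05 and 5 by DESeq2. Within each replicate number NOD was lower, at 39.6 against 62.2 CPM in the first libraries and 106 against 141 CPM in the second. The sign turned to 0.45 without BL6 2, to 0.19 without NOD 1 and to 0.31 with spans of at least 10 kb, while q-values up to 0.01 gave -2.25 (adjusted p = 1.00 by edgeR). In Smc1 the locus averaged 78.3 ± 55.1 CPM in NOD and 75.05 ± 10.9 CPM in BL6 (SD of 2 technical libraries each), a log2 fold change of 0.14 ± 0.58 (SE, adjusted p = 0.959 by edgeR), where 3 of 1315 windows (0.228%) were called. That sign turned to -0.97 without NOD 1 and to -0.0063 without BL6 2. The strain difference was thus smaller than the spread between libraries in both antibodies.

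H3K27ac and Smc1 were compared in the same way within a strain. In NOD the log2 fold change of H3K27ac over Smc1 was 0.30 ± 0.90 (SE, adjusted p = 0.831 by edgeR, 0% of 1312 windows called, 371 at an unadjusted p under 0.05, 222 by DESeq2), and it was -0.43 without H3K27ac NOD 2 and -0.28 without Smc1 NOD 2. In BL6 it was 0.83 ± 0.75 (SE, adjusted p = 0.487 by edgeR, 0% of 1315 windows called, 437 at an unadjusted p under 0.05, 201 by DESeq2). Without H3K27ac BL6 1 it was 1.06, in a fit left with 1 H3K27ac library. The spread in that fit is that of the technical Smc1 runs. With q-values up to 0.01 the fold change in BL6 was 2.03 (adjusted p = 0.140 by edgeR). The difference of the strain effects between antibodies was -0.43 ± 1.20 (SE, adjusted p = 1.00 by edgeR, 0% of 1318 windows called, 31 at an unadjusted p under 0.05). It was 0.57 without Smc1 NOD 1, 0.31 without H3K27ac BL6 2 and -2.08 with q-values up to 0.01.

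On 25 kb bins few of the 74 bins of the locus passed the filter on low counts, and those named here lie at its ends. For NOD against BL6, 1 bin was tested in H3K27ac and 5 in Smc1, and none was called, against a background of 0% of 39909 bins in H3K27ac and 0.0581% of 80899 bins in Smc1. The last bin had a log2 fold change of -0.82 ± 0.75 (SE, adjusted p = 1.00 by edgeR) in H3K27ac and 0.59 ± 0.77 (SE, adjusted p = 1.00 by edgeR) in Smc1. None of these bins had an unadjusted p under 0.05, where 202 bins did in H3K27ac and 3160 in Smc1 genome-wide, and DESeq2 called 43 and 82 bins, none at the locus. For H3K27ac against Smc1, 2 bins of the locus were tested in NOD and 4 in BL6, with none called and backgrounds of 0% of 60824 and 0% of 72274 bins, where 7736 and 9409 bins were below an unadjusted 0.05, and 5 and 22 were called by DESeq2. The last bin reached 1.55 ± 0.66 in BL6 (SE, adjusted p = 0.408 by edgeR) and 0.11 ± 1.02 in NOD (SE, adjusted p = 0.984 by edgeR). Without H3K27ac BL6 1 the BL6 fit holds 1 H3K27ac library, so its calls measure the spread of technical Smc1 runs only and are not given. The difference of the strain effects was tested in 6 bins of the locus with none called, against 0% of 77532 bins, with 1 of the 6 and 2248 of all at an unadjusted p under 0.05.

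On pairs of bins, 0 of the 11470 pairs tested in Smc1 lay at the locus, and the background was 0%, with 1248 pairs below an unadjusted 0.05 and 52 by DESeq2. In H3K27ac 1 of 815 pairs lay there, the last bin with itself, and 8 pairs elsewhere (0.982%) were called, with 57 below an unadjusted 0.05 and 28 by DESeq2. That pair held the 17 and 47 read pairs of BL6 and had no listed interaction in NOD, so no fold is given (unadjusted p = 0.0346, adjusted p = 0.624 by edgeR).

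The lists of other genes were counted by the bins their bodies overlap. Of 13 genes of the recombination machinery, among them Rag1 and Rag2, which cut the receptor genes, and Dntt, which adds bases at the joins, 9 were tested between strains in H3K27ac and 13 in Smc1. None had a called bin, and none of the 12 neighbours did, of which 4 and 12 were tested. With 0% of all bins called in H3K27ac and 0.0581% in Smc1, these counts are near the background. Rag1 had 19.8 and 14.9 CPM in H3K27ac NOD against 14.5 and 17.1 in H3K27ac BL6. The 13 double-positive thymocyte markers, which include Cd4 and Cd8a, had a median of 66.1 CPM per bin in H3K27ac, with library medians of 45.2 to 79.3, where the median of all bins with an anchor was 11. That list shares genes with the recombination list. Markers of gamma-delta T cells had 60.7, of B cells 49.6, of thymic epithelium 45.5, of myeloid cells 32.9, of erythroid cells 29.1 and of natural killer cells 19.8, and the library medians overlapped those of the double-positive list in all of these but the erythroid one (12.4 to 32.2). In Smc1 the double-positive list had a median of 21.9 CPM, below gamma-delta T cells (47.2), B cells (40.4), myeloid cells (32.8) and thymic epithelium (32.04) and above erythroid (19.9) and natural killer cells (13.2), where all bins had 17.0. The erythroid gene Gata1 was at 0 in all 8 libraries. It lies on chromosome X, which also held the longest stretches without an anchor. No called bin fell on any marker. Their part in the values of the locus was not tested.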

How the data were processed

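HiChIP contact tables of sorted double-positive thymocytes were read as deposited. Per the submitters' processing notes, the authors used HiC-Pro, Juicer 1.7.6 and MACS with GRCm38, with no role given for each. Each deposited table lists the count of read pairs per interaction and the read count of each anchor, both unscaled, and the authors' p-value and q-value per interaction. All listed interactions have a q-value up to 0.05, at least 2 read pairs and a span under 2 Mb, so an unlisted contact was not measured as 0. In sums and fits it was counted as 0.

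Samples were grouped by the strain and antibody labels. Members and gene lists were chosen with earlier results of these data known. Read pairs were summed over windows as long as the locus, 25 kb bins and pairs of bins, and scaled to the total of each table. Tests used edgeR 4.0.16 (quasi-likelihood, TMM factors, low counts filtered by filterByExpr, Benjamini-Hochberg adjustment at 0.05) across all features in R 4.3.3, and DESeq2 1.42.0 as an alternative, after tests on simulated data. The SE of a fold change was derived from its test statistic. Named bins were the 5 highest by mean CPM in each antibody, and named bin pairs the 10 highest. Single anchors, V segments, promoters and joins were named after their values were seen. Shares have exact Clopper-Pearson 95% intervals. Gene positions and promoters came from RefSeq GRCm38.p6, and promoters were matched by overlap with an anchor. No genome sequence was used.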

Additional observations from a re-analysis of the deposited data

How the results depend on the processing

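Of 165 alternatives over 18 results, 144 were labelled the same, 13 reversed, 6 moved and 2 newly passed, and the cause was not tested. Both new passes came without H3K27ac BL6 1, in fits left with 1 H3K27ac library. For the whole locus, the same means direction and side of the threshold. For bins and bin pairs it means an equal number of calls. Several Smc1 bin-pair alternatives tested 0 pairs of the locus, which fixed that number. For shares it means a change within the SD of the libraries, or in F1 within the exact interval. The log2 fold change of the whole locus, NOD over BL6, turned to -0.055 in Smc1 with q-values up to 0.01 and to -0.072 with the replicate block, and to 0.31 in H3K27ac with spans of at least 10 kb. H3K27ac over Smc1 in NOD turned to -0.32 with q-values up to 0.01, and the difference of strain effects to 0.27 with spans of at least 10 kb. With q-values up to 0.01 the fold change of the whole locus was -2.25 for H3K27ac strains, 2.03 for antibodies in BL6 and -2.08 for the difference, none of them called. Leaving out each library gave -0.97 to 0.76 for Smc1 strains, -1.15 to 0.45 for H3K27ac strains, 0.024 to 1.06 for antibodies in BL6, -0.43 to 1.30 for antibodies in NOD and -1.19 to 0.57 for the difference. Each of these fits leaves 1 library in a group, so only effect sizes are given.

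The 3′ end share moved in H3K27ac BL6 to 44.9% with spans of at least 10 kb, 77.9% with at least 3 read pairs and 79.7% with q-values up to 0.01 (69.8% otherwise). It moved to 41.8% in Smc1 BL6 with q-values up to 0.01 (30.5% otherwise), to 20.8% in F1 on the NOD genome with q-values up to 0.01 (32.4%) and to 59.3% in F1 on the BL6 genome with at least 3 read pairs (36.6%).

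Same-numbered libraries deviated together with r = 0.546 in H3K27ac and 0.0754 in Smc1, and with -0.286 and -0.144 between antibodies in NOD and BL6. With 2 pairs this does not pair them. The replicate block and, chosen after seeing the data, the block with crossed numbers between antibodies called no bin or window of the locus. The block gave 165 called bins genome-wide between Smc1 strains, against 47 without it. Bin pairs without a filter, and DESeq2 for the difference of strain effects, were not run. The first H3K27ac library of each strain lists 5 interactions at the locus, which limits the precision of its values.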
